A study of Arabidopsis thaliana with 12 samples.

Results

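The genes described here are 10 genes of abscisic acid metabolism and signalling, picked by name out of the 28642 genes in the deposited tables. They are NCED3, a synthesis gene; CYP707A1 and CYP707A3, breakdown genes; HAI1, HAI2, ABI1 and ABI2, phosphatase genes; ABF3, a transcription factor gene; and RD29B and RAB18, target genes. The RNA came from fully expanded leaves of the rosette of Arabidopsis thaliana, and 3 libraries were sequenced from each of 4 genotypes: the triple mutant sapx tapx pgr5, the single mutant pgr5, the double mutant sapx tapx, and wild type. SAPX and TAPX are ascorbate peroxidases of the chloroplast stroma and thylakoids, where they break down hydrogen peroxide, and PGR5 takes part in the cyclic route of electrons at photosystem I. Plants of every genotype grew for 18 days at a photon flux of 40 to 60 µmol m-2 s-1 and then stood for 90 min at 1500 µmol m-2 s-1. Every comparison is therefore between genotypes after the same exposure, and leaves from before it were not analysed here. The labels name no alleles and do not say whether the libraries of a genotype came from separate plants, so the p-values below measure only the spread between these libraries.

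Abscisic acid is a hormone made from plastid carotenoids, and it closes stomata and switches on genes for drought and cold tolerance in leaves. Its level is set by NCED enzymes, which cut the carotenoid precursor in the rate-limiting step, and by CYP707A enzymes, which hydroxylate the hormone and so inactivate it. The hormone binds PYR and PYL receptors, which then block type 2C protein phosphatases. This frees SnRK2 kinases to phosphorylate ABF factors, and those bind the abscisic acid response element, whose core is ACGTG, before target genes.

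The libraries held 4916603 to 6828070 exon reads. SAPX averaged 17.7 TPM (the authors' read counts corrected for gene length and library size) in the triple mutant, 218 TPM in pgr5, 17.5 TPM in sapx tapx and 197 TPM in wild type, and TAPX averaged 21.3, 173, 15.0 and 149 TPM in the same order. PGR5 RNA was present in all genotypes (360 to 468, 421 to 437, 419 to 535 and 435 to 452 TPM in the same order), so its level does not check the pgr5 label. Markers of mesophyll cells summed to 44062 to 57460 CPM (read counts corrected for library size only) and root markers to at most 16.9 CPM. Libraries of 1 genotype stood apart in a list of 12 rapid stress genes, such as the touch gene TCH4. The mean log2 CPM of this list in replicates 1, 2 and 3 was 6.07, 3.89 and 5.97 in the triple mutant, 4.90, 5.40 and 4.29 in pgr5, 6.50, 4.66 and 6.05 in sapx tapx, and 2.7, 5.99 and 2.77 in wild type. Replicate 2 was thus low in the triple mutant and in sapx tapx, and high in wild type and pgr5. The replicates 2 of the triple mutant, sapx tapx and wild type differ most from the others of their genotype, and each call of a member that changes when these 3 are left out is given below. In bulk leaves, fewer cells of a type and less RNA per cell cannot be told apart.

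Over the 12 libraries RAB18 had the highest mean level of the 10 genes at 55.8 ± 8.43 TPM (SD, n = 12), followed by ABI1 at 54.8 ± 17.6 TPM and ABF3 at 46.4 TPM. The library ranges of these genes overlapped, and differences in level between genes were not tested. CYP707A3 averaged 27.1 TPM, with a 220-fold ratio between its highest and lowest library, and its range took in those of ABI2, NCED3, HAI1 and CYP707A1. ABI2 followed at 14.2 TPM, NCED3 at 5.54 TPM, HAI1 at 4.71 TPM and CYP707A1 at 2.24 TPM, and the library ranges of NCED3, HAI1 and CYP707A1 overlapped. HAI2 at 0.696 TPM and RD29B at 0.399 TPM were close to the limit of detection. All reads of the 10 genes were unique, and none of the genes overlapped another, which matters because the library kit does not mark the strand.

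**Figure D1:**
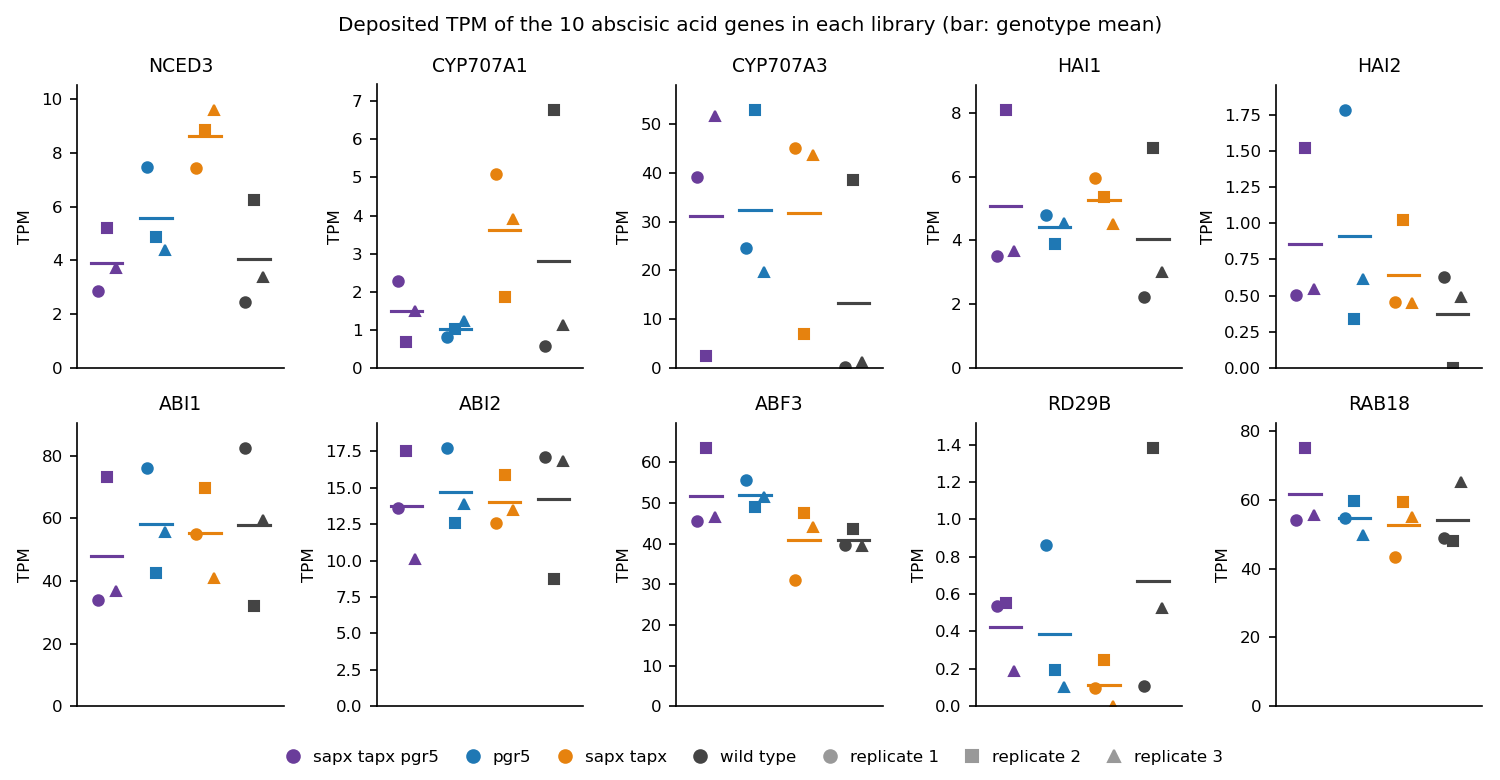
Deposited TPM (vertical axis, linear) of each of the 10 genes in each library, by genotype (colour) and replicate (shape), with bars at the genotype means. CYP707A3 spans 0.24 to 52.8 TPM within and between genotypes, and NCED3 in sapx tapx lies above all 3 triple mutant and all 3 wild type libraries.

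Differences were tested with edgeR's quasi-likelihood test on the deposited exon read counts, in 1 fit over all 12 libraries. A log2 fold change is that of the first named genotype over the second, with its standard error, and a gene counts as called at a Benjamini-Hochberg adjusted p, over 16350 genes tested, under 0.05. Of the 10 genes 8 passed the filter on low counts, and HAI2 and RD29B did not. None of the 8 was called in any comparison by this test. Of all genes tested, 10.3% were called between the triple mutant and wild type, 3.9% between pgr5 and wild type, 0.0367% between sapx tapx and wild type, 7.91% between the triple mutant and sapx tapx, and 1.54% between the triple mutant and pgr5. For the average effect of pgr5 over both ascorbate peroxidase backgrounds the share was 14.9%, for the average effect of sapx tapx 0.972%, and for the interaction, which asks whether the pgr5 effect differs between the backgrounds, 0.141%. Comparisons that have a genotype in common share its libraries. At an unadjusted p under 0.05 there was 1 member each in the triple mutant, pgr5 and sapx tapx against wild type (25.2%, 19.4% and 7.5% of all genes), 1 between the triple mutant and sapx tapx (21.3%), 0 between the triple mutant and pgr5 (14.1%), 1 in the interaction (7.04%), 2 in the average pgr5 effect (29.8%) and 0 in the average sapx tapx effect (14.8%). With DESeq2 1 member was called between the triple mutant and sapx tapx (NCED3, beside 7.69% of all genes), 1 in the average pgr5 effect (ABF3, beside 13.3%), and 0 in the other 6 comparisons.

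**Figure D2:**
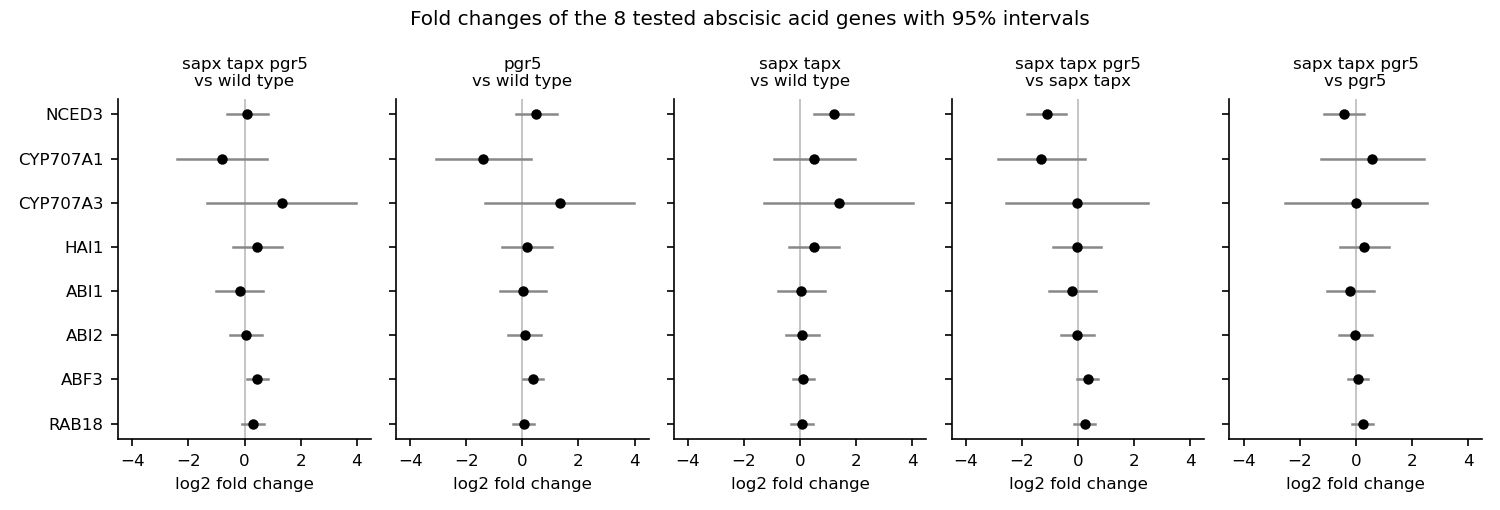
Log2 fold changes (points) of the 8 tested genes with 95% intervals (lines) in 5 comparisons of genotypes. The intervals of CYP707A3 are the widest, from -1.32 to 3.99 in the triple mutant against wild type, and those of NCED3 lie wholly above 0 in sapx tapx against wild type and wholly below 0 in the triple mutant against sapx tapx.

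NCED3 (AT3G14440, chromosome 3, 4831288 to 4833599, minus strand, TAIR10) has a single exon and encodes the 9-cis-epoxycarotenoid dioxygenase that is the main drought-induced enzyme of abscisic acid synthesis in leaves. It stood at 2.87, 5.19 and 3.71 TPM in replicates 1 to 3 of the triple mutant, at 7.48, 4.88 and 4.37 TPM in pgr5, at 7.43, 8.83 and 9.58 TPM in sapx tapx, and at 2.47, 6.25 and 3.39 TPM in wild type. The 3 sapx tapx libraries lay above all libraries of the triple mutant and of wild type, while pgr5 overlapped with each of the other genotypes. These levels rest on 25 to 108 reads a library.

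Between sapx tapx and wild type the log2 fold change of NCED3 was 1.2 ± 0.32, with mean levels of 8.61 ± 1.09 and 4.04 ± 1.97 TPM (SD, n = 3 each) and an edgeR quasi-likelihood adjusted p of 0.366. Of all genes tested 14.4% likewise had groups that did not overlap in TPM in that comparison. Without wild type replicate 2 the NCED3 value was 1.63, with an adjusted p of 0.0449 in the same test, where 0.489% of all genes were called. Without the 3 replicates 2 it was 1.60, with an adjusted p of 0.00457, where 4.69% were called. Wild type replicate 2 was the highest NCED3 library of wild type, so neither call is independent of the choice. DESeq2 and the replicate block over all genotypes gave an adjusted p of 0.0988 and 0.265, and over all alternatives it ranged up to 0.826. Between the triple mutant and sapx tapx the log2 fold change was -1.12 ± 0.31, with means of 3.92 ± 1.18 and 8.61 ± 1.09 TPM (SD, n = 3 each) and an edgeR adjusted p of 0.0508. Of all genes tested 23.9% had groups apart in that comparison. This value stood on the edge of the threshold: adjusted p ranged over 0.00808 to 0.17 under the alternatives, and NCED3 was called without replicate 1 or 2 of wild type, without pgr5 replicate 1 and without triple mutant replicate 2. In those omissions 7.26% to 9.19% of all genes were called. Without the 3 replicates 2 the value was -1.34, with an edgeR adjusted p of 0.00808, where 10% of all genes were called. The triple mutant library left out was the highest of NCED3 in that genotype, so this call is not independent of the choice. With same-numbered libraries kept together as blocks within each ascorbate peroxidase background, since such libraries deviated together there, the value was -1.14 and NCED3 was called with an edgeR adjusted p of 0.022. In that fit 15.8% of all genes tested were called in this comparison. These blocks were chosen after the pairing was seen in the same data, so the call is not independent of that choice.

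The interaction of NCED3, the pgr5 effect in sapx tapx minus the pgr5 effect in wild type, was -1.62 ± 0.45 on the log2 scale, with an unadjusted p of 0.00392 and an adjusted p of 0.319 in the edgeR quasi-likelihood test. Its parts were -1.12 in the sapx tapx background and 0.50 ± 0.33 in the wild type background, the second with an adjusted p of 0.437. Between the triple mutant and wild type the log2 fold change was 0.09 ± 0.34, with a 95% interval of -0.64 to 0.82. Without wild type replicate 2 the interaction was -2.05, with an edgeR adjusted p of 0.058, and without the 3 replicates 2 it was -2.28, with 0.00876, where 1.97% of all genes were called. The same high libraries of NCED3 were left out here, so these values are not independent of the choice either.

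The 250 bases before the deposited start of NCED3 held 1 site with the response element core, 84 bases before that start. RefSeq places the start 416 bases further upstream, so the window and its site lie within the RefSeq gene. The site is shown with its surroundings (RefSeq TAIR10.1, chr3:4833665-4833694, minus strand, 5′ to 3′), where capitals mark the letters that belong to a core on either strand.
NCED3: cactgattcaaCACGTGgccacactgatgg

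CYP707A1 and CYP707A3 encode abscisic acid 8′-hydroxylases, which start the breakdown of the hormone. CYP707A3 (AT5G45340, chromosome 5, 18368642 to 18370991, minus strand, TAIR10, 7 exons) stood at 39.1, 2.38 and 51.7 TPM in replicates 1 to 3 of the triple mutant, at 24.5, 52.8 and 19.6 TPM in pgr5, at 45.0, 6.97 and 43.6 TPM in sapx tapx, and at 0.24, 38.6 and 1.18 TPM in wild type. The 2 low wild type values rest on 2 and 10 reads, against 300 reads in replicate 2. The highest library of a genotype was 21.7 times its lowest in the triple mutant, 2.7 times in pgr5, 6.46 times in sapx tapx and 161 times in wild type, and no genotypes were apart. The SD of its log2 CPM within genotypes was 2.19, larger than that of 99.9% of the genes tested, whose median was 0.22.

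CYP707A1 (AT4G19230, chromosome 4, 10521379 to 10523961, plus strand, TAIR10, 8 exons) was lower, at 2.29, 0.691 and 1.5 TPM in the triple mutant, 0.809, 1.03 and 1.24 TPM in pgr5, 5.08, 1.86 and 3.91 TPM in sapx tapx, and 0.572, 6.76 and 1.12 TPM in wild type. All sapx tapx libraries lay above all pgr5 libraries, a pair that was not tested and for which no share over all genes was taken. In the pairs of genotypes compared here, 14.4% to 30.0% of all genes had groups apart in TPM. The wild type libraries of CYP707A1 spanned the range of every other genotype. Its SD within genotypes on the log2 CPM scale was 0.95, above that of 98.1% of the genes tested.

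Both hydroxylase genes moved with the rapid stress genes from library to library. CYP707A3 had its lowest library where the rapid list was lowest in 4 of 4 genotypes and its highest where the list was highest in 3 of 4, and within genotypes it changed by 1.71 log2 units for each log2 unit of the list mean. CYP707A1 shared the lowest library in 3 of 4 genotypes and the highest in 3 of 4, with 0.70 log2 units. In pgr5, however, it was highest where the list was lowest. TCH4, as an example of the list, stood at 926, 40.4 and 589 TPM in replicates 1 to 3 of the triple mutant and at 15.0, 789 and 22.4 TPM in wild type. These counts were not taken over all genes, so they do not set the 2 hydroxylase genes apart from other genes. The part of this variation in any difference between genotypes was not tested.

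**Figure D3:**
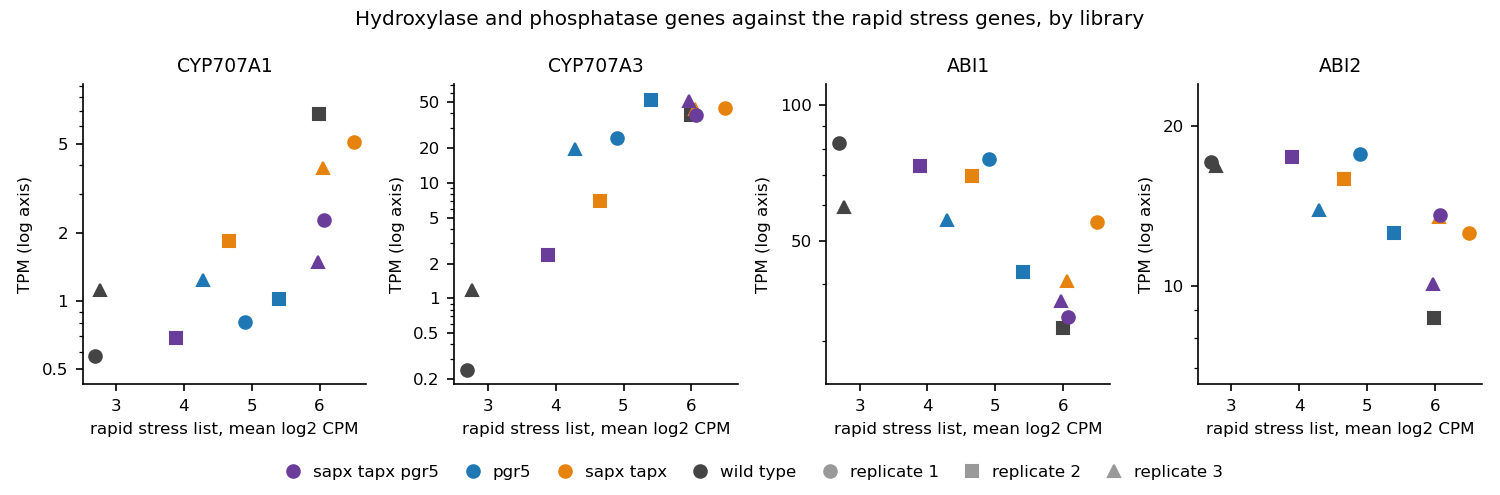
Levels of CYP707A1, CYP707A3, ABI1 and ABI2 (vertical axis, TPM on a log scale) against the mean log2 CPM of the 12 rapid stress genes (horizontal axis) in the 12 libraries, by genotype (colour) and replicate (shape). CYP707A3 runs between 0.24 and 52.8 TPM and is lowest at the left, while ABI1 and ABI2 are lowest among the libraries at the right.

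The fold changes of the hydroxylase genes carried errors to match. CYP707A3 differed by 1.34 ± 1.22 on the log2 scale between the triple mutant and wild type, by 1.33 ± 1.22 between pgr5 and wild type and by 1.38 ± 1.22 between sapx tapx and wild type, with edgeR adjusted p of 0.547, 0.606 and 0.853. Between the triple mutant and sapx tapx it was -0.04 ± 1.16, with a 95% interval of -2.57 to 2.49, so that even large differences cannot be seen at this spread. CYP707A1 had an average pgr5 effect of -1.35 ± 0.53 on the log2 scale, with means of 1.26 TPM in the 6 libraries with pgr5 and 3.22 TPM in the 6 without, and an edgeR adjusted p of 0.11. The groups overlapped. With same-numbered libraries as blocks within each background that effect was -1.27 and was called, at an edgeR adjusted p of 0.0232, and without wild type replicate 1 it was -1.59, at 0.0457. Of all genes tested, 25.2% and 12.2% were called in the average pgr5 effect in these settings. The blocks were chosen after these data were seen, so the call with them is not independent of that choice. Without wild type replicate 2, the highest library, the CYP707A1 effect was -0.51, at 0.406, and without the 3 replicates 2 it was -0.47, at 0.284. In those same settings the CYP707A1 difference from wild type took the other sign, to 0.87 and 1.22 in the triple mutant, against -0.79 with all libraries, and to 0.28 and 0.29 in pgr5, against -1.39, and none of these values was called.

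Without the 3 replicates 2 both genes had called differences. CYP707A3 was then higher by 6.05 log2 units in the triple mutant, by 5.50 in pgr5 and by 6 in sapx tapx, each against wild type, with edgeR adjusted p of 3.48e-05, 0.000255 and 7.77e-05, and CYP707A1 was higher by 2.46 in sapx tapx against wild type, with an adjusted p of 0.00162, and lower by 1.24 in the triple mutant against sapx tapx, with 0.0293. The average pgr5 effect of CYP707A3 was 2.78 log2 units (edgeR adjusted p = 0.000283), its interaction -5.45 (0.00224) and its average sapx tapx effect 3.28 (9.82e-05), and the average sapx tapx effect of CYP707A1 was 1.69 (0.00146). Without wild type replicate 2 alone, the CYP707A3 difference from wild type was 5.49 log2 units in the triple mutant, 5.49 in pgr5 and 5.54 in sapx tapx, with edgeR adjusted p of 0.0317, 0.0589 and 0.134, and its average pgr5 effect was 2.72, with 0.0483, where 11.2% and 15.4% of all genes were called in the triple mutant against wild type and in that effect. The libraries left out are those that stand apart in the rapid stress genes, with which CYP707A3 moves, so these calls are not independent of the choice. With the 3 replicates 2 left out, 18.1%, 8.92% and 4.69% of all genes tested were called in the triple mutant, pgr5 and sapx tapx, each against wild type. The share was 10% in the triple mutant against sapx tapx and 1.97% in the interaction. For the average effects it was 18.9% (pgr5) and 10.2% (sapx tapx).

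The windows of 250 bases before the deposited starts of CYP707A1 and CYP707A3 each held 1 core site, at 140 and 143 bases before the start. They also shared an unbroken run of 23 bases, held by 2 windows among those of all genes, namely these. For the other 44 pairs of members the longest shared run was 6 to 16 bases. The stretches that lie before both the deposited and the RefSeq start are shown (RefSeq TAIR10.1, chr4:10521129-10521258, plus strand, and chr5:18371022-18371241, minus strand, 5′ to 3′), with the letters of a core on either strand in capitals.
CYP707A1: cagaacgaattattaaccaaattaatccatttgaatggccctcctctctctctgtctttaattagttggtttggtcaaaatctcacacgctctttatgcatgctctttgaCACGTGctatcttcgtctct
CYP707A3: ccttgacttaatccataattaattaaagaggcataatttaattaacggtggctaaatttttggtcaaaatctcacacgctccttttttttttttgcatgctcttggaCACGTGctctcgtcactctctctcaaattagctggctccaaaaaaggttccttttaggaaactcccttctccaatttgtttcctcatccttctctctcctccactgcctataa
The shared run, tttggtcaaaatctcacacgctc, ends 159 bases before the start of CYP707A1 and 170 bases before that of CYP707A3, and a run of 11 bases, tgcatgctctt, stands in both windows between it and the core.

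ABI1 (AT4G26080, chromosome 4) and ABI2 (AT5G57050, chromosome 5) encode the type 2C phosphatases that hold back SnRK2 kinases when no hormone is bound. ABI1 stood at 33.8, 73.1 and 36.8 TPM in replicates 1 to 3 of the triple mutant, 76.1, 42.6 and 55.6 TPM in pgr5, 55.0, 69.6 and 40.8 TPM in sapx tapx, and 82.3, 32 and 59.5 TPM in wild type. ABI2 stood at 13.6, 17.5 and 10.1 TPM in the triple mutant, 17.7, 12.6 and 13.9 TPM in pgr5, 12.6, 15.9 and 13.5 TPM in sapx tapx, and 17.1, 8.71 and 16.8 TPM in wild type. All genotypes overlapped for both genes. Replicate 2 was the highest library of the triple mutant and of sapx tapx and the lowest of pgr5 and wild type, for ABI1 and ABI2 alike, which is the reverse of the rapid stress genes.

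ABI1 had its lowest library where the rapid list was highest in 3 of 4 genotypes and its highest where the list was lowest in 3 of 4, and ABI2 did so in 3 of 4 and 3 of 4. Within genotypes ABI1 changed by -0.38 and ABI2 by -0.27 log2 units for each log2 unit of the list mean. ABF3 and RAB18 also had their lowest library where the list was highest in 3 of 4 genotypes, and their highest where it was lowest in 2 of 4. Their changes were smaller, at -0.08 and -0.12 log2 units. The same counts over all genes were not taken. The log2 CPM of ABI1 and ABI2 correlated at 0.86 over the 12 libraries (Pearson, as a description of values that share libraries and depth). The log2 fold change between the triple mutant and wild type was -0.17 ± 0.38 for ABI1 and 0.06 ± 0.27 for ABI2, and in sapx tapx against wild type it was 0.03 ± 0.38 and 0.08 ± 0.27. Their 95% intervals in the triple mutant against wild type ran from -1.0 to 0.67 for ABI1 and from -0.53 to 0.64 for ABI2. Without the 3 replicates 2, ABI1 was called lower in the triple mutant than in wild type, at -0.92 log2 units with an edgeR adjusted p of 0.0239. In that setting 18.1% of all genes were called in this comparison. The libraries left out stand apart in the rapid stress genes, against which ABI1 runs in reverse, so this call is not independent of the choice. Neither ABI1 nor ABI2 had the core in the 250 bases before its deposited start, the only members of the 10 without one.

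HAI1 and HAI2 encode phosphatases of the same clade that are known to be induced by abscisic acid. HAI1 (AT5G59220) stood at 3.50, 8.08 and 3.66 TPM in the triple mutant, 4.81, 3.89 and 4.54 TPM in pgr5, 5.96, 5.36 and 4.52 TPM in sapx tapx, and 2.24, 6.91 and 3.02 TPM in wild type. Replicate 2 was its highest library in the triple mutant and in wild type, and all genotypes overlapped. The log2 fold change was 0.46 ± 0.40 in the triple mutant, 0.16 ± 0.41 in pgr5 and 0.50 ± 0.41 in sapx tapx, each against wild type, with edgeR adjusted p of 0.527, 0.878 and 0.839. Without the 3 replicates 2 it was 1.06 in sapx tapx against wild type, with an edgeR adjusted p of 0.0434, where 4.69% of all genes were called. The wild type library left out was the highest of HAI1 in wild type, so this call is not independent of the choice. HAI1 was called in that comparison in 0 of 12 omissions of 1 library.

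HAI2 (AT1G07430) had 4, 14 and 5 reads in the triple mutant, 14, 3 and 5 in pgr5, 4, 7 and 4 in sapx tapx, and 5, 0 and 4 in wild type. It did not pass the filter of the main test, and with 69 reads in all its differences between genotypes were not judged. In the fit without that filter it was not called. HAI3, the other gene of the group and not among the 10, had 3 reads over all 12 libraries. The windows of HAI1 and HAI2 held 2 and 4 core sites, and that of HAI1 lies within the RefSeq gene, whose start is 320 bases further upstream.

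ABF3 (AT4G34000, chromosome 4, 16295430 to 16298255, plus strand, TAIR10) encodes a leucine zipper factor that binds the response element and acts below the SnRK2 kinases. It stood at 45.5, 63.4 and 46.5 TPM in the triple mutant, 55.6, 49.0 and 51.4 TPM in pgr5, 31.1, 47.6 and 44.1 TPM in sapx tapx, and 39.6, 43.5 and 39.4 TPM in wild type. All libraries of the triple mutant and of pgr5 lay above all 3 wild type libraries, whereas sapx tapx overlapped with wild type and, through replicate 2, with the triple mutant. Of all genes tested, 30.0% had groups apart in TPM between the triple mutant and wild type and 25.7% between pgr5 and wild type.

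The log2 fold change of ABF3 was 0.46 ± 0.17 in the triple mutant and 0.38 ± 0.17 in pgr5, each against wild type, with edgeR adjusted p of 0.115 and 0.248. In the triple mutant against sapx tapx it was 0.35 ± 0.17, with an adjusted p of 0.268, and in sapx tapx against wild type 0.11 ± 0.17. The average pgr5 effect was 0.36 ± 0.12, with means of 51.9 TPM in the 6 libraries with pgr5 and 40.9 TPM in the 6 without, and an edgeR adjusted p of 0.0629. The size of this effect held between 0.27 and 0.44 under all alternatives, and the adjusted p between 0.00459 and 0.129.

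With same-numbered libraries as blocks within each background, ABF3 was called higher in pgr5 than in wild type (0.38, edgeR adjusted p = 0.0365), higher in the triple mutant against sapx tapx (0.35, 0.038) and higher in the average pgr5 effect (0.36, 0.00459). In that fit 1 of 8 members was called in the first comparison, 2 in the second (ABF3 higher, NCED3 lower) and 2 in the third (ABF3 higher, CYP707A1 lower), against 11.5%, 15.8% and 25.2% of all genes tested. The blocks were chosen after the pairing was seen in these data, so the calls in that fit are not independent of the choice. DESeq2 also called ABF3 in the average pgr5 effect, with an adjusted p of 0.0428, where 13.3% of all genes were called. Without the 3 replicates 2 edgeR called ABF3 in this effect at 0.37, with 0.0206, where 18.9% of all genes were called. The interaction of ABF3 was -0.03 ± 0.24 on the log2 scale, with a 95% interval of -0.55 to 0.49, so the pgr5 effect on ABF3 was not shown to differ between the backgrounds. Of the reads assigned to ABF3 10.6% lay in introns, the largest share among the members.

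RD29B and RAB18 are targets of the pathway. RAB18 (AT5G66400, chromosome 5, 26518277 to 26519242, minus strand, TAIR10) encodes a dehydrin, and it stood at 54.3, 75 and 55.7 TPM in the triple mutant, 54.8, 59.6 and 49.8 TPM in pgr5, 43.5, 59.4 and 55.0 TPM in sapx tapx, and 49.0, 48.0 and 65.1 TPM in wild type. All genotypes overlapped. The log2 fold change was 0.30 ± 0.17 in the triple mutant, 0.05 ± 0.17 in pgr5 and 0.07 ± 0.17 in sapx tapx, each against wild type, with edgeR adjusted p of 0.308, 0.916 and 0.968. Without the 3 replicates 2 the triple mutant value was 0.04, with an adjusted p of 0.906. The 95% intervals of the last 2 ran from -0.33 to 0.43 and from -0.31 to 0.45. The SD of RAB18 within genotypes was 0.23 on the log2 CPM scale, as was that of ABF3, next to the median of 0.22 over all genes tested.

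RD29B (AT5G52300, named LTI65 by RefSeq) encodes a protein induced by drought and salt, and its promoter is widely used as a reporter of abscisic acid. It had 5, 6 and 2 reads in the triple mutant, 8, 2 and 1 in pgr5, 1, 2 and 0 in sapx tapx, and 1, 12 and 5 in wild type. With 45 reads in all it did not pass the filter of the main test, and its differences between genotypes were not judged. In the fit without that filter it was not called. RAB18 and RD29B thus differed widely in level in the same leaves, at means of 55.8 and 0.399 TPM over the 12 libraries. Both windows held the core, and a link between core sites and level was not tested.

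The promoter of RD29B held 4 core sites, at 178, 96, 73 and 45 bases before the deposited start, all of them before both annotated starts. That of RAB18 held 2, at 223 and 138 bases, the first of them before both starts. The RD29B window also held the longer form ACGTGGC, which that of RAB18 did not. The stretches before both starts are shown (RefSeq TAIR10.1, chr5:21236806-21237020, plus strand, and chr5:26519448-26519492, minus strand, 5′ to 3′), with the letters of a core on either strand in capitals.
RD29B: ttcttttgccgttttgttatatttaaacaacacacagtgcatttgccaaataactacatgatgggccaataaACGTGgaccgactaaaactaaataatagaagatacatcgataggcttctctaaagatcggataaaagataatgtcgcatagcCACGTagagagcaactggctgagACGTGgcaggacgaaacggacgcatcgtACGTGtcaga
RAB18: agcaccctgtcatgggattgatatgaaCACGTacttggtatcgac

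Over the 10 genes, the core ACGTG was found on either strand in 8 windows of 250 bases, and in 24.6% of the 28495 windows of all genes. The longer form ACGTGGC, which contains the core, was in 2 of 10 (4.14% of all windows). The drought and cold element, searched only as GCCGAC, and the heat shock element GAANNTTC were in 1 of 10 each, both times RAB18 (2.59% and 9.74% of all windows). Other forms of the drought and cold element were not searched, and the RD29B stretch above holds accgac, which differs from GCCGAC in its first base. After the link to rapid stress genes had been seen, CGCGTT, the rapid stress response element, was looked for and was in 0 of 10 (3.2% of all windows), and TTGAC, the core of sites of WRKY factors, was in 6 of 10 (44.6%). A match of these letters is a description of the window, not a bound site.

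**Figure D4:**
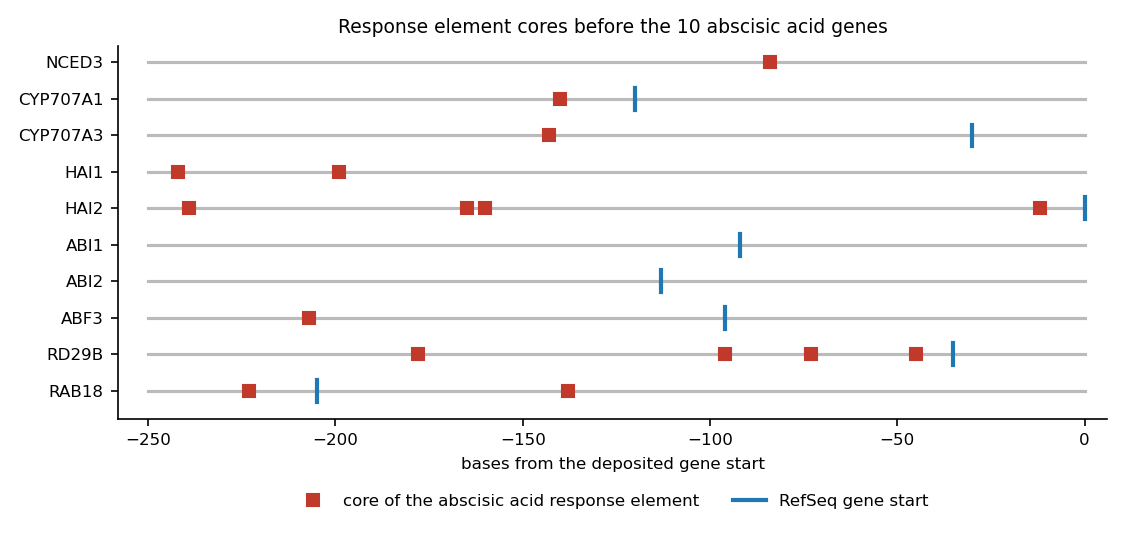
Positions of core sites (squares) in the 250 bases before the deposited start of each of the 10 genes, with the RefSeq start (bar) where it lies in the window. CYP707A1 and CYP707A3 each have 1 site at about the same distance, RD29B and HAI2 have 4, and ABI1 and ABI2 have none.

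The rest of the pathway was described by 71 further genes in 8 groups, of which 48 passed the filter on low counts. In the triple mutant against wild type 6 of 48 were called, all higher: the synthesis genes ABA1 (zeaxanthin epoxidase) and AAO3 (abscisic aldehyde oxidase), the receptor gene PYL7, the factor gene ABF4, AFP3, which encodes a protein that binds the factor ABI5, and the dehydrin gene COR47. In pgr5 against wild type 2 of 48 were called, ABA1 and P5CS1 (proline synthesis), both higher, and in sapx tapx against wild type 0 of 48, where 3 had an unadjusted p under 0.05 in the edgeR test and DESeq2 called 0. The median log2 fold change of the 48 was 0.37, 0.13 and 0.19 in these comparisons, against 0.01, 0.00 and 0.00 over all genes tested, and that of the 8 members was 0.20, 0.12 and 0.30. Over all genes tested 10.3%, 3.9% and 0.0367% were called in these comparisons in either direction, and the counts of called pathway genes lie near that background. In the higher direction alone 6.21%, 2.44% and 0.0183% of all genes were called. The called pathway genes, all higher, made up a larger share of the 48 than this in the triple mutant and in pgr5, which was not tested.

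PYL7 stood at 30.6, 26.5 and 27.2 TPM in the triple mutant, 15.2, 12.1 and 15.2 TPM in pgr5, 3.73, 12.5 and 8.79 TPM in sapx tapx, and 7.63, 13.0 and 8.06 TPM in wild type. The triple mutant lay above every library of the other genotypes. Of all genes tested, 30.0%, 23.3% and 23.9% had the triple mutant apart from wild type, pgr5 and sapx tapx, each pair in either direction. The log2 fold change of PYL7 was 1.66 ± 0.31 in the triple mutant against wild type and 1.77 ± 0.32 against sapx tapx, with edgeR adjusted p of 0.00618 and 0.00506, and both calls held in 12 of 12 omissions of 1 library. In the triple mutant against pgr5 and in the interaction, edgeR did not call PYL7. DESeq2 called it higher against pgr5 but not in the interaction.

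ABA1 was the steadiest of the called genes, at 503, 554 and 546 TPM in the triple mutant, 559, 536 and 554 TPM in pgr5, 417, 433 and 433 TPM in sapx tapx, and 420, 375 and 405 TPM in wild type. All 6 libraries with pgr5 lay above all 6 without it, and 6.15% of all genes tested had these groups apart in either direction. The log2 fold change was 0.52 ± 0.07 in the triple mutant and 0.48 ± 0.07 in pgr5, each against wild type, with edgeR adjusted p of 0.000833 and 0.00441, and 0.32 ± 0.07 in the triple mutant against sapx tapx, with 0.0162. The calls against wild type held in 12 of 12 omissions of 1 library and that against sapx tapx in 9 of 12.

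Of the other calls, COR47 averaged 678 TPM in the triple mutant against 315 TPM in wild type (log2 1.22 ± 0.27, edgeR adjusted p = 0.0148) and AAO3 10.6 against 6.33 TPM (0.86 ± 0.20, 0.0194). AFP3 averaged 71.0 TPM in the triple mutant against 40.2 TPM in wild type (0.93 ± 0.22, 0.0186) and ABF4 18.3 against 12.8 TPM (0.62 ± 0.15, 0.0254). P5CS1 averaged 168 TPM in pgr5 against 106 TPM in wild type (0.70 ± 0.17, 0.0489). The COR47, AFP3 and ABF4 calls held in 9 of 12 omissions each, that of AAO3 in 11 of 12 and that of P5CS1 in 3 of 12. COR47 was also called in the triple mutant against sapx tapx (1.16 ± 0.27, edgeR adjusted p = 0.0205), in 9 of 12 omissions.

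The libraries whose omission ended a call of COR47 in the triple mutant against wild type were replicates 1 and 3 of wild type and replicate 1 of the triple mutant, with adjusted p of 0.0569, 0.0635 and 0.0625. Against sapx tapx they were replicates 1 and 3 of sapx tapx and replicate 1 of the triple mutant, with 0.0745, 0.0827 and 0.0815. The AAO3 call ended without triple mutant replicate 1 (0.0595). That of AFP3 ended without wild type replicates 1 or 3 or triple mutant replicate 1 (0.0675, 0.0554 and 0.0712), and that of ABF4 without wild type replicate 2 or triple mutant replicates 2 or 3 (0.0606, 0.0524 and 0.101). The ABA1 call against sapx tapx ended without sapx tapx replicates 1 or 3 or triple mutant replicate 3 (0.0682, 0.0703 and 0.0572), all by edgeR's quasi-likelihood test. The P5CS1 call ended without any 1 library of pgr5 or wild type, without sapx tapx replicate 1 and without triple mutant replicates 1 or 3, with adjusted p of 0.0587 to 0.136.

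By group, in the triple mutant against wild type, the called genes were 2 of 6 synthesis genes (median log2 fold change 0.19), 0 of 4 breakdown genes (-0.18), 0 of 3 transport genes (0.52), 1 of 7 receptor genes (0.38), 0 of 3 phosphatase genes (0.35), 0 of 4 kinase genes (0.23), 2 of 9 factor genes (0.10) and 1 of 12 target genes (0.48). The phosphatase gene PP2CA, close in level to ABI1, stood at 63.5, 49.5 and 51.1 TPM in the triple mutant and at 37.2, 52.8 and 48.8 TPM in wild type, and the groups overlapped. CYP707A2, the hydroxylase gene best known from seeds, averaged 20.2 ± 3.74 TPM in the triple mutant and 23.5 ± 2.34 TPM in wild type (SD, n = 3 each), with a log2 fold change of -0.11 ± 0.19. Unlike that of CYP707A3, its highest library was at most 1.72 times its lowest within any genotype.

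**Figure D5:**
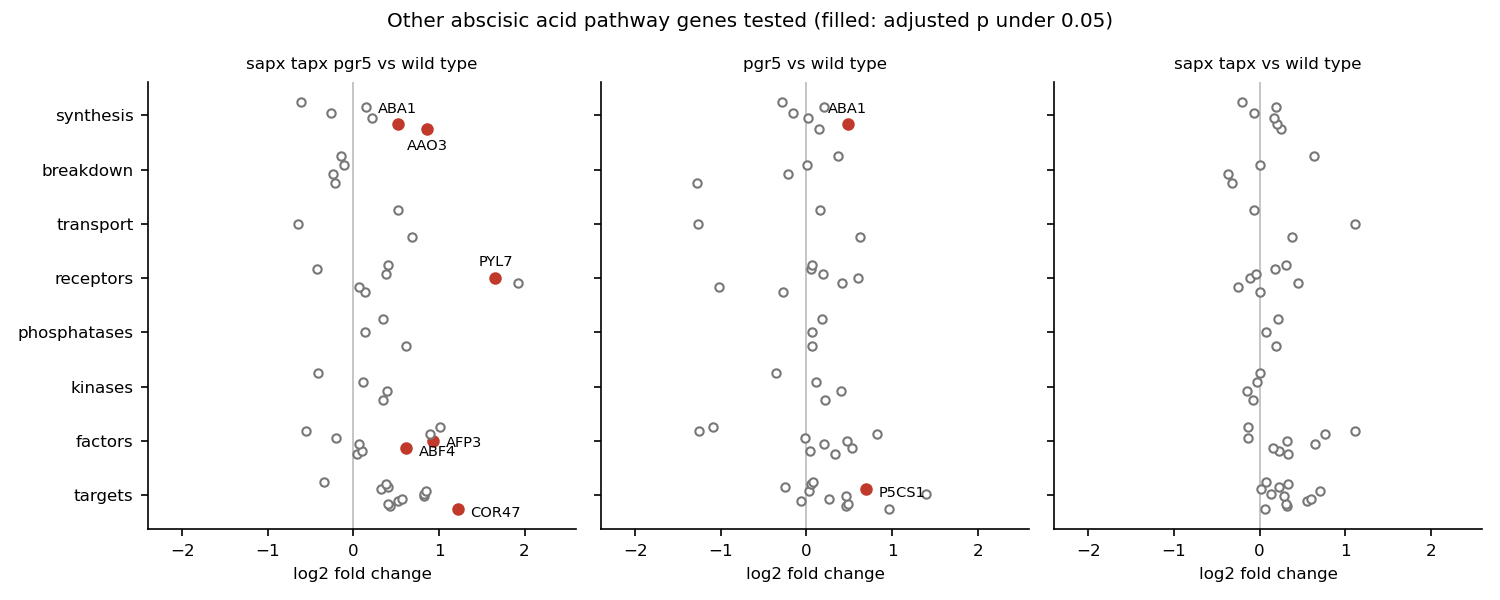
Log2 fold changes (horizontal axis) of the 48 other pathway genes tested, by group (rows), for each mutant genotype against wild type. Filled and named points were called: 6 in the triple mutant, 2 in pgr5 and 0 in sapx tapx, all of them to the right of 0.

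The average pgr5 effect had 7 of 48 called, near the background of 14.9% of all genes in either direction. All 7 were higher, while 8.28% of all genes were called higher. They were PYL7 at 1.19, COR47 at 1.07, AFP3 at 0.54, P5CS1 and ABF4 at 0.50 each, the kinase gene SNRK2.3 at 0.47 and ABA1 at 0.40 on the log2 scale, with edgeR adjusted p between 0.000314 (ABA1) and 0.0324 (AFP3). The calls of AFP3 and SNRK2.3 held in 5 of 12 omissions each and the other 5 in 12 of 12. That of AFP3 ended without replicates 1 or 2 of the triple mutant, replicate 1 of pgr5, or replicates 1 or 3 of sapx tapx or wild type (edgeR adjusted p of 0.0544 to 0.0756), and that of SNRK2.3 without triple mutant replicate 1, any replicate of pgr5, replicates 2 or 3 of sapx tapx or replicate 3 of wild type (0.0527 to 0.0758). With same-numbered libraries as blocks within each background, 16 of 48 were called in the average pgr5 effect (13 higher, 3 lower), 16 in the triple mutant against sapx tapx (13 higher, 3 lower) and 6 in pgr5 against wild type (5 higher, 1 lower), beside 25.2%, 15.8% and 11.5% of all genes tested. Those blocks were chosen after these data were seen, so such calls are not independent of the choice. The triple mutant against pgr5, the interaction and the average sapx tapx effect had 0 of 48 called by edgeR, with 8, 3 and 7 at an unadjusted p under 0.05, and DESeq2 called 2, 0 and 0.

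Markers of other leaf cells were compared between the genotypes as well. Over all genes tested, 10.3% were called in the triple mutant and 3.9% in pgr5, each against wild type. The 6 phloem markers summed to 742 to 820 CPM in the triple mutant, 720 to 820 CPM in pgr5, 546 to 567 CPM in sapx tapx and 500 to 576 CPM in wild type, and 3 of 6 (SUC2, AHA3 and PP2-A1) were called higher in the triple mutant and in pgr5, each against wild type. The 8 guard cell markers summed to 81.6 to 93.6, 94.4 to 102, 98.1 to 103 and 111 to 113 CPM in the same order. Of these 1 of 8 (FAMA) was called lower in the triple mutant than in wild type, near the share of all genes. No marker of these 2 lists was at 0 reads in any library.

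The 4 root markers summed to 10.7 to 16.9 CPM in the triple mutant, 11.7 to 15.1 CPM in pgr5, 5.77 to 10.3 CPM in sapx tapx and 4.25 to 9.35 CPM in wild type. Of these only PYK10 was tested, and it was called higher in the triple mutant than in wild type (log2 1.21), while 1 to 3 of the 4 were at 0 reads in each library. The 4 trichome markers summed to 7.97 to 14.9, 11.9 to 12.9, 12 to 17.9 and 15.8 to 18.5 CPM in the same order, and 1 of 3 tested, GL2, was called lower in the triple mutant and in pgr5, each against wild type (log2 -4.72 and -3.41). In 3 of the 6 libraries with pgr5, 1 trichome marker was at 0 reads. The 4 markers of dividing cells summed to 24.5 to 27.3, 23.3 to 26.7, 24.1 to 28.7 and 27.8 to 32.9 CPM, none was at 0 reads, and 1 was called lower in the triple mutant than in wild type. Of the 6 mesophyll markers 1 was called higher in that comparison. Beside these single calls, 10.3% of all genes tested were called in the triple mutant and 3.9% in pgr5, each against wild type. The part of any of these lists in the levels of ABF3, ABA1, PYL7 or the other pathway genes was not tested.

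Among the 12993 genes with a mean of at least 5 CPM, the closest in pattern to CYP707A3 over the 12 libraries were APK2A, SRC2 and SZF1, with Pearson correlations of log2 CPM of 0.99, 0.983 and 0.981. For CYP707A1 they were AT5G56980, AT4G25030 and SOT16 (0.969, 0.958 and 0.952), and for NCED3 AT5G66650, AT5G11650 and MAPKKK14 (0.933, 0.926 and 0.888). ABI1 and ABI2 shared a neighbour, AT3G44450, at 0.919 and 0.931, and the closest to ABI1 was AT1G13360 at 0.942. HAI1 lay closest to SWEET17 (0.904), ABF3 to DCF (0.927) and RAB18 to AT2G45500 (0.894). These values describe profiles that share libraries and depth, and they carry no test.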

How the data were processed

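RNA-seq libraries were prepared with an unstranded TruSeq kit, per the labels' protocols, and aligned to TAIR10, per the submitters' processing notes. What aligned and counted the reads is not given in the sources used here. The authors deposited 1 table per library with read counts, RPKM and TPM per gene, per the file headers. Total exon read counts were tested with edgeR 4.0.16 in R 4.3.3 (TMM scaling, filterByExpr, 16350 of 28642 genes kept, quasi-likelihood, 1 fit over 12 libraries, Benjamini-Hochberg adjustment). The deposited TPM served for levels. CPM were scaled by TMM with a prior count of 2 on the log2 scale. Intervals for fold changes are 95% t intervals. Counting errors do not include library preparation, since reads carried no molecular identifiers. The fit was tested on simulated data.

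The members and lists were chosen with earlier results of these data known. All members were named. Other pathway genes were named when called, at most 5 in each direction by size, and ABA1 in the triple mutant against wild type, SNRK2.3 and ABA1 in the average pgr5 effect, PP2CA, HAI3 and CYP707A2 were named in addition after their values were seen. Likeness named the 3 genes of highest correlation, printed in part.

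Alternatives were DESeq2 1.42.0, its size factors in edgeR, limma 3.58.1 on log2(RPKM + 1), unique exon reads, no filter on low counts, the compared groups alone, a replicate block over all genotypes, the omission of each library and of the 3 replicates 2, and, added after the data were seen, a replicate block within each ascorbate peroxidase background. The last was added because same-numbered libraries deviated together within wild type and pgr5 (correlations 0.188, 0.44 and 0.344 for replicates 1 to 3) and within sapx tapx and the triple mutant (0.441, 0.612 and 0.372), while over all genotypes only 7 of 18 same-numbered pairs exceeded 0.1. No pair of libraries agreed within sampling noise (chi-square per degree of freedom at least 3.93).

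Sequences came from RefSeq TAIR10.1, whose nuclear chromosomes are those of TAIR10. No deposited region ran past a chromosome end, and 50.2% of 27997 matched genes shared at least 1 end with RefSeq. Stretches after a RefSeq start are shown for at most 30 bases.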

Additional observations from a re-analysis of the deposited data

How the results depend on the processing

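The 64 values (8 members in 8 comparisons) had 1287 counterparts under 21 alternative settings. Of these counterparts 1249 kept their side of the threshold, 38 became called and 0 called values changed sign. Among the 1249, 118 uncalled values took the other sign. Called members numbered, without the 3 replicates 2, 2 in the triple mutant, 1 in pgr5 and 4 in sapx tapx each against wild type, 2 in the triple mutant against sapx tapx, 2 in the interaction and 2 in each average effect, where 18.1%, 8.92%, 4.69%, 10%, 1.97%, 18.9% (pgr5) and 10.2% (sapx tapx) of all genes were called. Between the triple mutant and sapx tapx 1 member (NCED3) was called with DESeq2 size factors, without the filter, with DESeq2, with limma on log2(RPKM + 1), on unique reads, with the replicate block over all genotypes and with the compared groups alone. In the average pgr5 effect 1 (ABF3) was called with DESeq2 and with the replicate block over all genotypes. The replicate block within each background gave 1 member in pgr5 against wild type and 2 each in the triple mutant against sapx tapx and in the average pgr5 effect, where the pairing has its source in the correlation of same-numbered libraries; it changed no other member's call. Omission of 1 library gave 0 to 1 called members in sapx tapx and in the triple mutant each against wild type, in the triple mutant against sapx tapx and in the average pgr5 effect, and 0 to 0 elsewhere.

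Called other pathway genes numbered, without the 3 replicates 2, 16 in the triple mutant, 9 in pgr5 and 3 in sapx tapx each against wild type, 7 in the triple mutant against pgr5, 2 in the interaction, 13 in the average pgr5 and 8 in the average sapx tapx effect, beside the shares above and 6.62% between the triple mutant and pgr5. In pgr5 against wild type 1 was called with DESeq2 size factors, with limma and on unique reads, and 6 with the replicate block within each background. In the triple mutant against wild type 3 were called with the compared groups alone. In the triple mutant against sapx tapx 5 were called with the replicate block over all genotypes and 16 with that within each background. In the triple mutant against pgr5 2 were called with DESeq2, 1 with the replicate block and 2 with the compared groups alone. In the average pgr5 effect 12 were called with the replicate block over all genotypes and 16 with that within each background. Omission of 1 library gave 1 to 4 in pgr5 and 3 to 8 in the triple mutant each against wild type, 1 to 4 and 0 to 2 in the triple mutant against sapx tapx and against pgr5, 5 to 10 and 0 to 2 in the average pgr5 and sapx tapx effects, and 0 to 0 in sapx tapx against wild type and the interaction. The cause of these changes was not tested. CYP707A1, NCED3, HAI1, HAI2 and RD29B rest on 0 to 108 reads a library, and the spread within genotypes of CYP707A3, CYP707A1, HAI1 and NCED3 exceeded that of 99.9%, 98.1%, 91.8% and 87.5% of the genes tested. No scaling moved the median of all genes by more than 0.075 (log2).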
